A study of Mus musculus with 10 samples.

Results

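The Nr4a orphan nuclear receptors Nr4a1, Nr4a2 and Nr4a3 were described in the micro-dissected dentate gyrus of 10 male C57BL/6 mice aged 10 weeks. They were taken by name as the rows NR4A1, NR4A2 and NR4A3, and all 3 were found among the 24982 rows of the deposited gene count table. The groups were 5 wild types and 5 global knockouts of Fndc5, whose product is the membrane protein that gives rise to the myokine irisin. Global means that the gene was disrupted in all tissues, so a difference in the dentate gyrus may start elsewhere in the body, and the labels do not say which exons were disrupted or whether the groups were littermates. Each mouse gave 1 library of 26226375 to 43802079 reads counted to genes.

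Nuclear receptors are transcription factors, most of which are switched by a lipid or hormone ligand. The Nr4a receptors are called orphans. Their ligand pocket is filled by bulky side chains, so their activity is set mainly by how much of them is made. Neurons transcribe them as immediate early genes within minutes of firing, through calcium, cyclic AMP and the factor CREB, and in the hippocampus they have been linked to the consolidation of long-term memory. They bind the response element called NBRE as monomers, and Nr4a1 and Nr4a2 also pair with the retinoid X receptors.

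The 3 genes lie on 3 chromosomes and have no overlapping gene in the GENCODE M21 annotation of GRCm38. Nr4a1 is on chromosome 15 from 101254269 to 101274795 on the plus strand, Nr4a2 on chromosome 2 from 57106830 to 57124003 on the minus strand, and Nr4a3 on chromosome 4 from 48045153 to 48086447 on the plus strand. Nr4a3 shares its chromosome with Fndc5, which starts 81.1 Mb further along.

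The promoters are shown because all 3 hold the same motif in the same number. The sequences are RefSeq windows (GRCm38.p6), 5′ to 3′ on the strand of the gene and before the RefSeq start of transcription, and capitals mark TGACG or its reverse complement CGTCA, the core of the cyclic AMP response element to which CREB binds. Nr4a1 is chr15:101266596-101266845 (plus strand), inside the annotated gene but in none of its exons, Nr4a2 is chr2:57124004-57124253 (minus strand) and Nr4a3 is chr4:48045055-48045152 (plus strand), where the 98 bases before the first annotated exon are given.
Nr4a1: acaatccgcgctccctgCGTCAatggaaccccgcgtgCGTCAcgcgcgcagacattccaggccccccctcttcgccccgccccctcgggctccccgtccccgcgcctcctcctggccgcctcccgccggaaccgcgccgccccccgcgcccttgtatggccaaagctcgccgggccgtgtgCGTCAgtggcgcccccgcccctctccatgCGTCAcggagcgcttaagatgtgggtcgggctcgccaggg
Nr4a2: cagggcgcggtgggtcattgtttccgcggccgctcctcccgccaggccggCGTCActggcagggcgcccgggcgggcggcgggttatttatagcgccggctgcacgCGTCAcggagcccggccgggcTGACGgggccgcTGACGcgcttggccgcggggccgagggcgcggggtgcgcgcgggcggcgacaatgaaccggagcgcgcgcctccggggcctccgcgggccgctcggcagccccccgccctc
Nr4a3: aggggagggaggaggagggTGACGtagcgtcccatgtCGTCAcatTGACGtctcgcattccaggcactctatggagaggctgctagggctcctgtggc
In the 250 bases before the RefSeq start, each of the 3 promoters held 4 matches to the core. In Nr4a1 they began 233, 213, 69 and 40 bases before the start, and all 4 read CGTCA. In Nr4a2 they began at 200, 144, 123 and 111 bases, and in Nr4a3 at 231, 213, 205 and 147 bases, the last of these inside an annotated first exon and not printed. Of 32851 RefSeq promoter windows of this length, 17.8% held at least 1 match on either strand, 3.9% at least 2 and 0.137% at least 4, which is 45 windows. These promoters are rich in G and C (74.4% in Nr4a1, 80.0% in Nr4a2 and 63.6% in Nr4a3), and among the 6582 windows with at least as much as Nr4a3 the share with 4 or more was 0.38%. No window of the 3 held the full element TGACGTCA (found in 1.55% of all windows), the NBRE AAAGGTCA (1.34%), the AP-1 motif TGANTCA (6.75%), the CArG box of the serum response element (1.47%) or the MEF2 site (0.508%). A match is a description of the letters and does not show that a factor binds.

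Nr4a3 was the most abundant of the 3 per length of transcript, and Nr4a2 and Nr4a1 were close to each other. With CPM, the counts of a gene scaled to the size of its library, divided by the length of all annotated exons in kb (RPKM), Nr4a3 was at 18.9 ± 1.79 (SD, n = 5) in wild types and 17.1 ± 1.19 in knockouts. Nr4a2 was at 6.31 ± 0.376 and 5.53 ± 0.673 RPKM. Nr4a1 was at 5.71 ± 1.14 and 4.7 ± 0.766 RPKM. Within single libraries Nr4a3 was 2.41 to 4.35 times as high per length as Nr4a1 and 2.69 to 3.68 times as high as Nr4a2, so its first place held in every mouse. The order of Nr4a2 and Nr4a1 did not hold: their ratio per length ran from 0.853 to 1.5 over the 10 mice, and with the longest coding transcript as the length the wild-type means were 7.18 RPKM for Nr4a2 and 7.85 for Nr4a1. Against all 14753 tested genes with a length, the wild-type level of Nr4a3 was above 82.4%, that of Nr4a2 above 55.8% and that of Nr4a1 above 53.1%.

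Of 49 nuclear receptor genes listed, 36 had enough counts to be tested, and Nr4a3 stood at place 4 per length in both genotypes. In wild types Thra, a thyroid hormone receptor, was at 192 RPKM, Nr3c2, the mineralocorticoid receptor, at 44.9, and the clock repressor Nr1d1 at 28.2. Below Nr4a3 came Nr1d2, also a clock repressor, at 14.4 RPKM, the retinoid X receptor Rxrb at 13.0 and Nr2f1, a patterning factor of the cortex, at 11.0. The ranges of Nr4a3 (17.2 to 21.4 RPKM in wild types) and Nr1d2 (13.2 to 16.4) did not overlap. With the longest coding transcript as the length Nr4a3 was at place 5. Thra and Nr1d1 overlap at their 3′ ends on opposite strands, and since the strand setting of the counting is not given in the sources used here, their levels are uncertain. Nr4a2 was 11th and Nr4a1 14th of the 36 in wild types. Between them lay Nr2f6 at 5.97 RPKM and Esrra at 5.96 RPKM, and the ranges of these 4 neighbours overlapped. The receptors Nr0b2, Nr1h5 and Nr2e3, named because they were the ones with no read, had 0 counts in all 10 libraries.

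**Figure D1:**
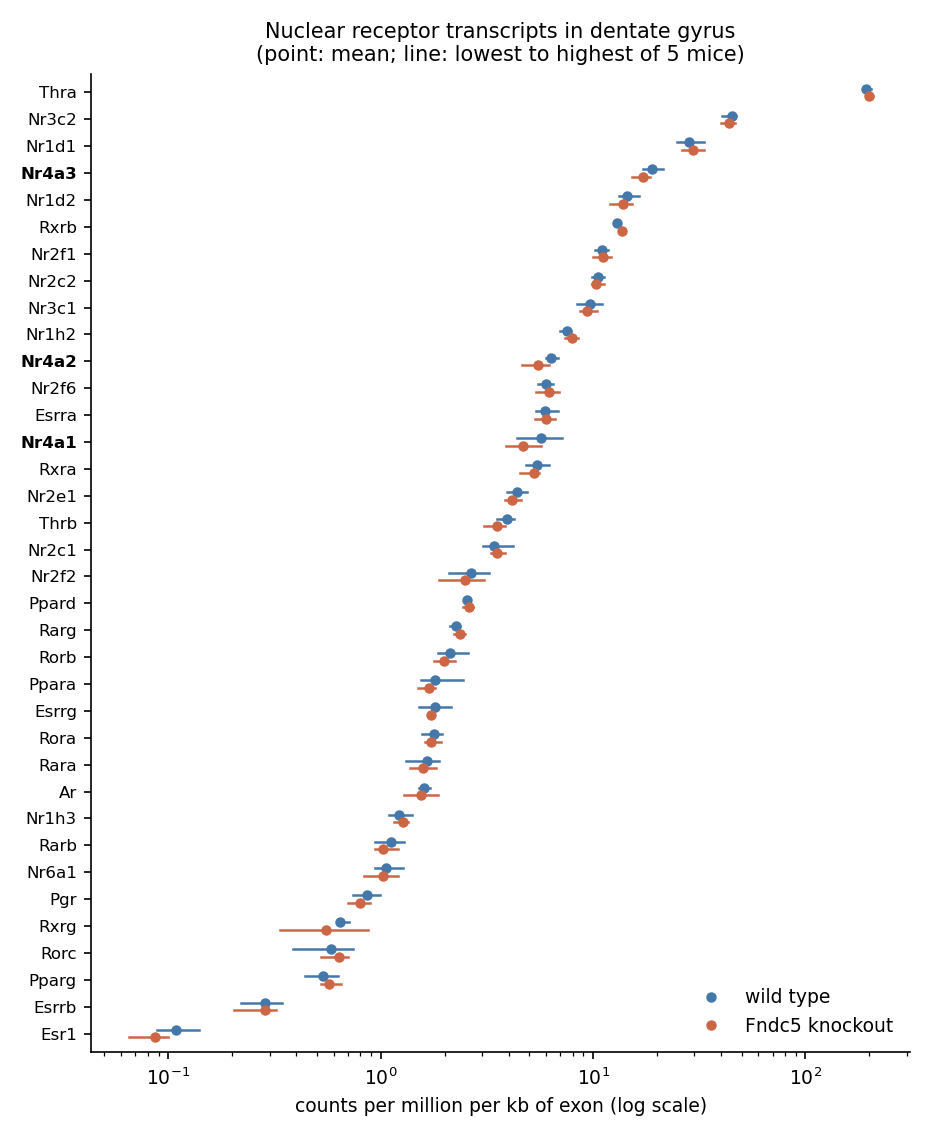
Levels of the 36 tested nuclear receptor genes in CPM per kb of exon on a log axis, with wild types in blue and Fndc5 knockouts in orange. Points are means of 5 mice and lines run from the lowest to the highest mouse. Nr4a3 is at 18.9 in wild types, with 3 receptors above it, and Nr4a2 (6.31) and Nr4a1 (5.71) sit among neighbours whose lines overlap theirs.

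Markers of the labelled tissue were present. All 10 dentate granule neuron markers (among them Prox1, Calb1 and C1ql2) were tested. Their summed level was 2220 to 2600 CPM in wild types and 2390 to 2590 in knockouts. Pyramidal cell markers of CA1 summed to between 76.6 and 93.9 CPM. Those of CA2 and CA3 summed to 318 to 341 CPM in wild types and 320 to 356 in knockouts. Of the granule neuron markers 7 had higher and 3 lower values in the knockouts, with a median log2 fold change of 0.03 and none past the edgeR threshold. At an unadjusted p under 0.05 there were 3, Npnt (0.11), Lct (0.12) and Dsp (0.16), all with higher values. Of all genes tested 6.29% had such a p in either direction. In bulk tissue, fewer cells of a type and less RNA per cell cannot be told apart. Fndc5 was at 75.3 ± 4.6 CPM in wild types and 51.3 ± 4.27 in knockouts, with the lowest wild type (69.2) above the highest knockout (56.7). Its log2 fold change was -0.55 (SE 0.057, edgeR adjusted p 0.000495), so the labels and this gene go together, while reads on the gene remained in the knockouts.

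The comparison asks whether transcripts of the Nr4a receptors differ in the dentate gyrus when Fndc5 is disrupted. All 3 had lower fitted values in the knockouts, by 17.4% for Nr4a1, 12.4% for Nr4a2 and 9.53% for Nr4a3, and none passed the threshold over all genes. The levels below are CPM after scaling of the libraries by TMM, and fold changes are knockout over wild type on the log2 scale.

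Nr4a1, which also takes part in cell death and in immune and metabolic control outside the brain, varied most between mice. Wild-type mice 1 to 5 were at 19.5, 22.9, 15.4, 25.1 and 17.2 CPM, and knockout mice 1 to 5 at 13.7, 18.8, 14.9, 19.9 and 15.2 CPM. Wild-type mice 2 and 4 lay above every knockout and 3 knockouts lay below every wild type, but the groups overlapped. The means were 20.0 ± 3.98 and 16.5 ± 2.69 CPM (SD, n = 5 each). On the log2 scale the fold change was -0.28, its SE 0.13 and its 95% interval -0.54 to -0.01. edgeR gave an adjusted p of 0.788 and an unadjusted p of 0.0431, and the exact two-sided permutation p was 0.143. Without wild-type mouse 4 it was -0.18 (edgeR unadjusted p 0.151). The coefficient of variation was 19.9% in wild types and 16.3% in knockouts, against 3.66% to 5.03% from counting alone at 395 to 745 reads, so the spread between mice and not the depth set the error.

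Nr4a2, known for its need in midbrain dopamine neurons, was even among wild types. Wild-type mice 1 to 5 were at 24.5, 27.7, 26.8, 24.8 and 24.3 CPM, and knockout mice 1 to 5 at 23.1, 24.5, 20.5, 25.3 and 18.8 CPM. Knockout mice 1, 3 and 5 lay below every wild type, whereas knockout mice 2 and 4 lay within the wild-type range. With means of 25.6 ± 1.53 and 22.4 ± 2.73 CPM (n = 5 each), the genotypes differed by -0.19 on the log2 scale (SE 0.074, 95% interval -0.35 to -0.04). The edgeR adjusted p was 0.788, the unadjusted p 0.0195 and the exact permutation p 0.0714. The lowest level was that of knockout mouse 5, and without it the log2 fold change was -0.14 (edgeR unadjusted p 0.0601).

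Nr4a3, the receptor with the most transcripts here, had the smallest fitted difference. Wild-type mice 1 to 5 were at 128.3, 120.5, 106.4, 103.1 and 107.6 CPM, and knockout mice 1 to 5 at 101.8, 105.3, 91.7, 111.4 and 101.9 CPM. Wild-type mice 1 and 2 were above all other mice, and the other 3 wild types lay inside the knockout range. Means of 113 ± 10.7 and 102 ± 7.15 CPM (n = 5 each) gave a log2 fold change of -0.14 (SE 0.061, 95% interval -0.27 to -0.02). The edgeR adjusted p was 0.788, the unadjusted p 0.0303 and the exact permutation p 0.111. Without wild-type mouse 1 the log2 fold change was -0.10 (edgeR unadjusted p 0.103).

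**Figure D2:**
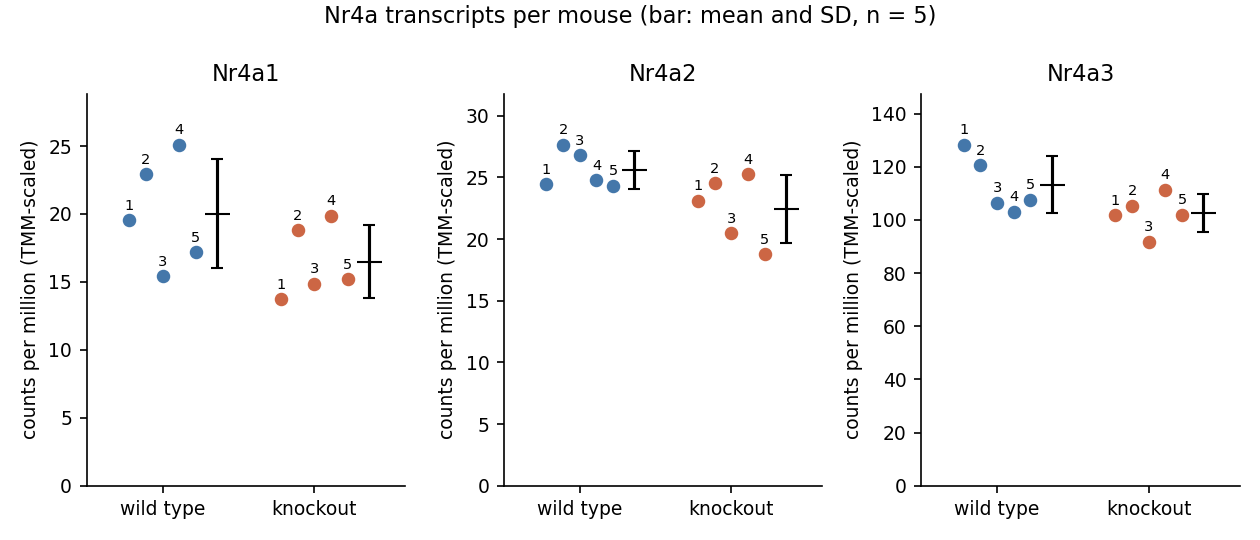
CPM of Nr4a1, Nr4a2 and Nr4a3 in each mouse, with wild types in blue, Fndc5 knockouts in orange, the mouse number above each point, and the mean and SD of 5 mice as a bar. In every panel the knockout mean is lower (16.5 against 20.0, 22.4 against 25.6 and 102 against 113) and the groups overlap.

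Against the background of all genes, 0 of the 3 passed an edgeR adjusted p of 0.05, where 0.00673% of 14867 tested genes did, namely Fndc5 alone. All 3 had an unadjusted p under 0.05 and a lower value in the knockouts, where 6.29% of genes had such a p in either direction and 3.75% with a lower value. The members were chosen with earlier results of these data known, and their levels correlated positively over the mice. Their count is therefore not a test against these shares. A log2 fold change below 0, with no test, was found for 49.3% of genes. The groups did not overlap for 0 of the 3 and for 0.895% of genes, or 0.437% with the knockouts below. DESeq2 called 0.0151% of its genes and 0 of the 3, with unadjusted p-values of 0.091, 0.0147 and 0.0288 for Nr4a1, Nr4a2 and Nr4a3. With the mouse number as a block, edgeR called 8 genes and 0 of the 3. In the same order its unadjusted p-values were 0.000596, 0.00598 and 0.0094, and its adjusted ones 0.156, 0.312 and 0.337. What mice of 1 number share is not stated in the labels. The 95% intervals reach to 68.7% of the wild-type level for Nr4a1, 78.6% for Nr4a2 and 82.7% for Nr4a3, so larger losses lie outside them, and their upper ends were at 99.3%, 97.6% and 98.9%.

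**Figure D3:**
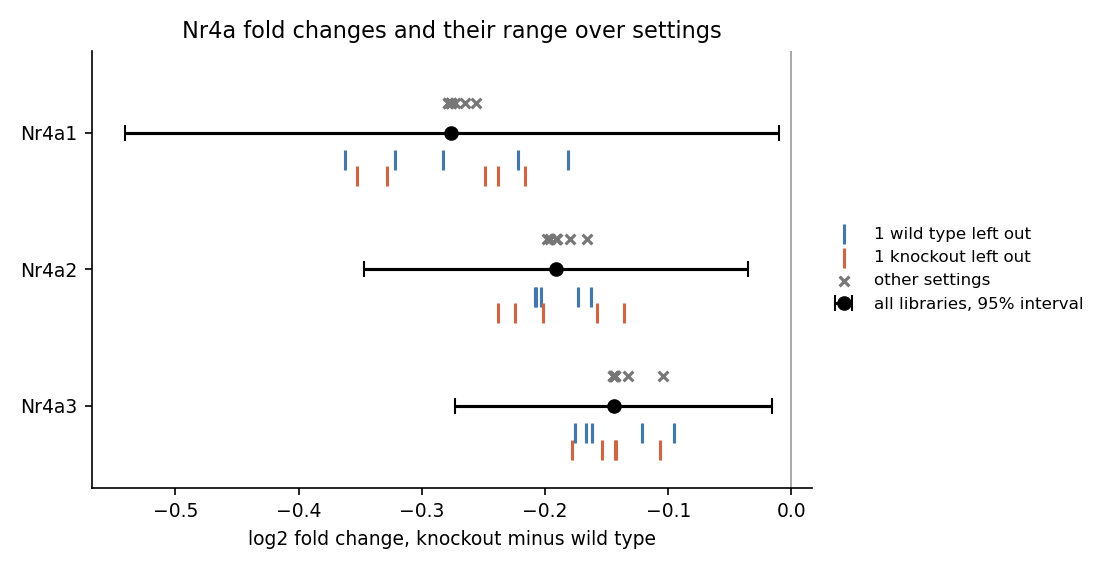
Log2 fold changes of the 3 receptors, knockout minus wild type, on the horizontal axis. Black points and bars are the estimate from all libraries with its 95% interval, ticks are estimates with 1 wild type (blue) or 1 knockout (orange) left out, and crosses are the other settings. Every estimate is below 0, and those for Nr4a1 with 1 library left out run from -0.36 to -0.18.

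The proportions of the 3 receptors within a library, which do not depend on library scaling, were compared as 3 ratios. The log2 ratio of Nr4a1 to Nr4a2 counts was -0.38 ± 0.30 in wild types and -0.45 ± 0.18 in knockouts (n = 5 each), a difference of -0.07 (exact permutation p 0.667). For Nr4a1 to Nr4a3 the difference was -0.13 (exact permutation p 0.46), and for Nr4a2 to Nr4a3 it was -0.06 (exact permutation p 0.5). Adjusted over the 3 ratios each p was 0.667. Each genotype difference in proportion was smaller than the SD between mice of either genotype. For wild types and knockouts that SD was 0.305 and 0.174 for Nr4a1 to Nr4a3, and 0.153 and 0.137 for Nr4a2 to Nr4a3. Nr4a3 made up 56.5% to 65.5% of the family's RPKM in single mice, with wild-type mouse 4 lowest and knockout mouse 5 highest.

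The levels of the 3 receptors correlated positively over the mice, and no correlation passed the test once adjusted. Over the 10 mice, the log2 CPM of Nr4a1 and Nr4a2 had r = 0.558 (permutation p 0.0939) and rho = 0.709 (permutation p 0.0267). For Nr4a1 and Nr4a3 the values were r = 0.519 (permutation p 0.124) and rho = 0.661 (permutation p 0.0447). For Nr4a2 and Nr4a3 they were r = 0.594 (permutation p 0.0709) and rho = 0.636 (permutation p 0.0545). Adjusted over the 3 pairs, every r had a permutation p of 0.124 and every rho 0.0545. Without the 2 mice farthest from the median of the first gene, r was 0.671, 0.783 and 0.359 in the same order. With values centred on the genotype mean, which removes the difference between genotypes, r was 0.365, 0.335 and 0.385 (permutation p 0.287, 0.384 and 0.258).

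**Figure D4:**
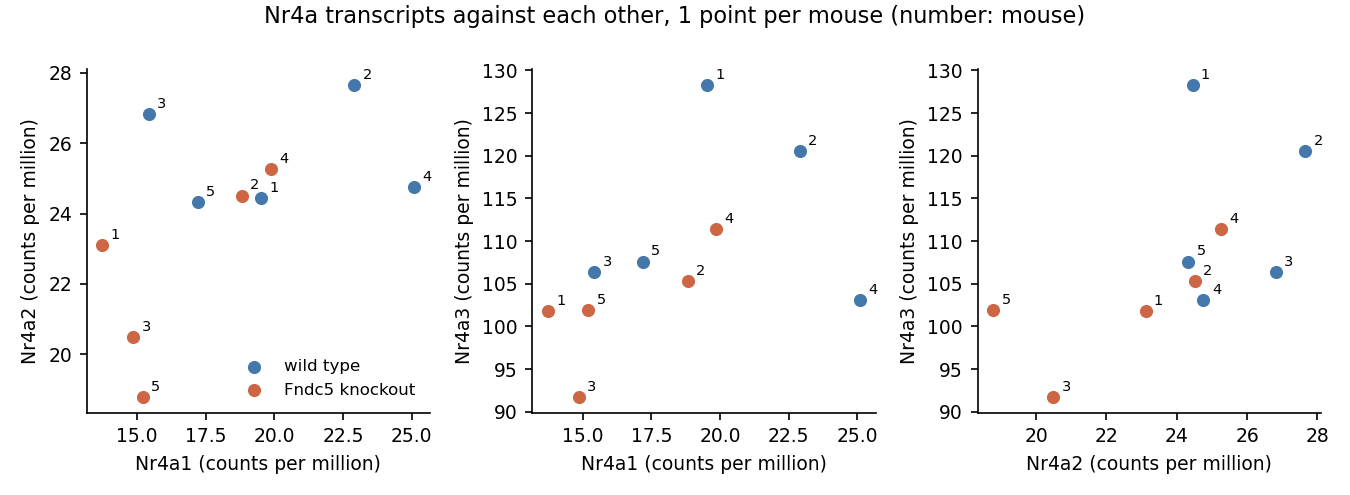
CPM of the receptors plotted against each other, 1 point per mouse with its number, wild types in blue and knockouts in orange. Knockout mice 3 and 5 are the lowest for Nr4a2, wild-type mouse 4 is the highest for Nr4a1 but not for Nr4a3, and wild-type mice 1 and 2 are the highest for Nr4a3.

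The genes whose pattern was most like a receptor's were sought among 10940 genes with a mean of at least 5 CPM, by the r of log2 CPM centred on the genotype mean over 10 mice. This is a description, since with so many genes and few mice some always reach a high r. Nr4a1 was most like the sorting nexin Snx18 (r = 0.918), Emx2os (0.907), the amino acid transporter Slc36a4 (0.902), the ciliary gene Mks1 (0.869) and the inositol phosphatase Inpp5f (0.867). Nr4a2 was most like dystrophin (Dmd, 0.939), the junctional adhesion gene Jam3 (0.938), the phosphatase Inpp4b (0.935), Cdadc1 (0.93) and the heparan sulfate enzyme Ndst3 (0.93). Nr4a3 was most like Mroh1 (0.932), Mfsd14a (0.923), Limd1 (0.919), Armh4 (0.906) and BC031361 (0.904). The 3 lists shared no gene. Ranked the same way, Nr4a2 was at place 1724 for Nr4a1 and Nr4a3 at place 1983. Of the 21 rapid primary response genes in the ranking, 0 were among the 50 most like any of the receptors. With 50 places among 10940 genes, most sets of 21 genes would give that count, so it says nothing particular about these genes. The median r of the 21 genes with Nr4a1 was 0.433, against -0.04 over all genes. With Nr4a2 and Nr4a3 that median was 0.103 and 0.0933.

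Partners and controllers of the Nr4a receptors were then described by lists, beside a median log2 fold change of 0.002 over all genes tested. Of all genes tested, 49.3% had a log2 fold change below 0. An unadjusted p under 0.05 was found for 6.29% of them, and for 3.75% with a lower value. Genes of 1 list can vary together between mice, so counts by direction are not counts of separate results. The main edgeR fit to all 10 libraries called none of the genes on these lists. With the mouse number added as a block, edgeR called the rapid primary response gene Npas4 (log2 fold change -0.749, edgeR adjusted p 0.0362). The retinoid X receptors, with which Nr4a1 and Nr4a2 form dimers, showed no common direction. Rxrb was at 51.5 ± 1.35 CPM in wild types and 54.5 ± 1.53 in knockouts (log2 fold change 0.08, SE 0.038, edgeR adjusted p 0.788). It was the only 1 of the 3 with an unadjusted p under 0.05 (edgeR, 0.045). Rxra was at 29.8 CPM in wild types and 28.8 in knockouts (-0.05, SE 0.075) and the scarce Rxrg at 1.48 and 1.26 CPM (-0.21, SE 0.21).

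Of 26 genes that carry calcium and cyclic AMP signals to Nr4a transcription (CREB, MEF2 and SRF with their kinases, phosphatases and coactivators), 9 had lower and 17 higher values, with a median of 0.01. At an unadjusted p under 0.05 there were 3 with lower values and 1 with a higher value. Camk4, the nuclear calcium kinase that phosphorylates CREB, was at 91.7 ± 6.63 and 82.0 ± 4.92 CPM, a log2 fold change of -0.16 (SE 0.053, edgeR adjusted p 0.788). The calcineurin subunits Ppp3cb (-0.09, SE 0.040) and Ppp3r1 (-0.10, SE 0.047) also had lower values, and the CREB coactivator Crtc2 had a higher one (0.12, SE 0.043). The corepressors and coactivators used by Nr4a receptors were lower for 5 and higher for 7 of 12 genes (median 0.01). The deacetylase Hdac1 was at 0.12 (SE 0.055) and was the only 1 of the 12 with an unadjusted p under 0.05 (edgeR, 0.0491). The corepressor Trim28 was at 0.07 (SE 0.036), and the coactivators Ncoa3 at 0.08 (SE 0.056) and Ncoa2 at -0.06 (SE 0.042).

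Chaperones of the endoplasmic reticulum have been described as targets of Nr4a receptors in hippocampal memory. Their list, which also holds the transcription factor Xbp1, had lower values for 15 of 15 genes, with a median of -0.13. Of all genes tested 49.3% had lower values, and whether the list departs from that share was not tested. Hspa5, the main chaperone of that compartment, was at 288 ± 82.0 CPM in wild types and 236 ± 11.6 in knockouts (log2 fold change -0.29, SE 0.14, edgeR adjusted p 0.789). Dnajb11 was at -0.13 (SE 0.061), Canx at -0.13 (SE 0.062) and Dnajb9 at -0.13 (SE 0.067). At an unadjusted p under 0.05 there was 1 gene, Dnajb11. The summed level of the list was 2257, 2871, 2615, 1863 and 1983 CPM in wild-type mice 1 to 5 and 1953, 2144, 1932, 2308 and 2076 CPM in knockout mice 1 to 5. Wild-type mice 2 and 3 were high, and wild-type mouse 4, the highest for Nr4a1, was the lowest of all mice. Without wild-type mouse 2 the median was -0.07, and without wild-type mouse 4 it was -0.20.

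The other 43 nuclear receptors gave 30 tested genes, of which 18 had lower and 12 higher values (17 lower under upper-quartile scaling), with a median of -0.04, or -0.01 without wild-type mouse 1. The thyroid hormone receptor Thrb was at -0.15 (SE 0.065) and was the only 1 of the 30 with an unadjusted p under 0.05. The estrogen receptor Esr1 was at -0.34 (SE 0.18) with 1.49 and 1.18 CPM, Thra at 0.05 (SE 0.034) and Nr1h2, an oxysterol receptor, at 0.08 (SE 0.053).

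The 30 other rapid primary response genes, transcribed like the Nr4a receptors soon after a stimulus, had lower values for 23 and higher for 7, with a median of -0.10. At an unadjusted p under 0.05 there were 9 with lower values and 2 with higher values, Ier3 and Gadd45g, which were named after their values were seen. Of all genes tested 49.3% had lower values, 6.29% had such a p in either direction and 3.75% had it with a lower value. The lowest p-values were those of Fosb (log2 fold change -0.51, SE 0.10, edgeR adjusted p 0.56), Npas4 (-0.76, SE 0.15, edgeR adjusted p 0.56), Fosl2 (-0.21, SE 0.046, edgeR adjusted p 0.788) and Fos (-0.58, SE 0.18, edgeR adjusted p 0.788). DESeq2 called 2 of the 30, Fosb and Npas4. Without wild-type mouse 1 edgeR called 1 of them, Npas4, which then had a log2 fold change of -0.88 (adjusted p 0.0176). Jun and Egr3, named after their values were seen as the list's most abundant genes, were at 0.04 and -0.02, with 211 and 147 CPM in wild types.

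**Figure D5:**
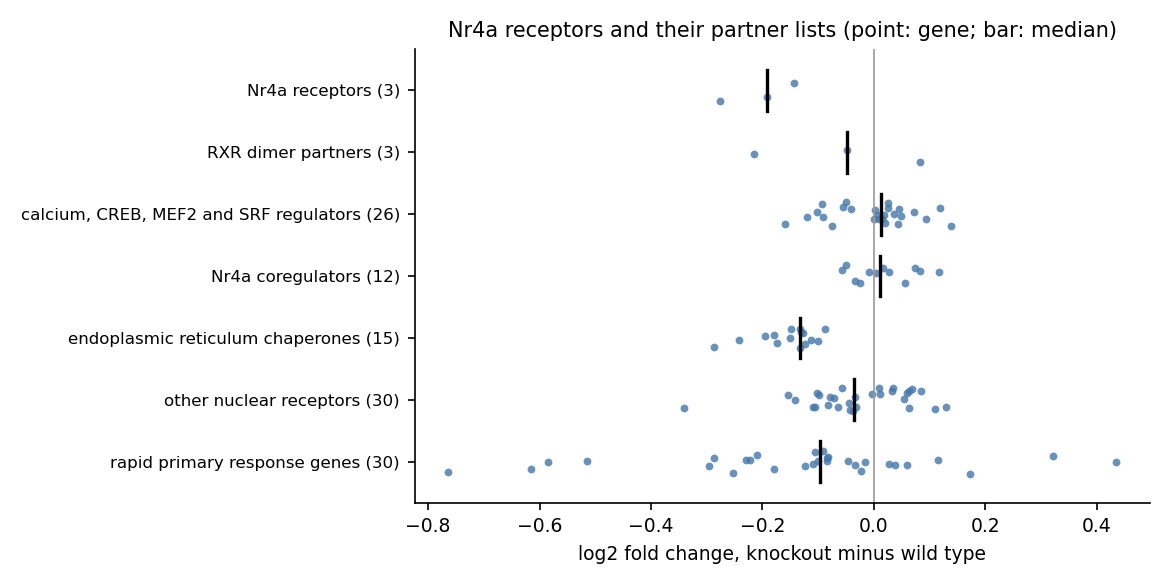
Log2 fold changes, knockout minus wild type, of the tested genes of each list (1 point per gene, number of genes in brackets), with the median as a bar. The Nr4a receptors lie between -0.28 and -0.14, and the 15 genes of the endoplasmic reticulum chaperone list are all below 0. The other lists plotted, which do not include the cell type markers, have genes on both sides of 0.

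Genes grouped by the number of cyclic AMP cores in their promoter changed in both directions in every group. Whether the change depends on that number was not tested. Of the genes with 4 or more cores, 38 were tested, and beyond the 3 receptors 20 had lower and 15 higher values, with a median of -0.02 and 0 called. Genes with 1 to 3 cores had a median of -0.001 (1715 lower, 1664 higher) and those with none 0.003 (3953 lower, 4203 higher). Of the 23 rapid primary response genes with a promoter in the RefSeq table, 15 held at least 1 core and 0 held 4 or more.

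Other measures of the same libraries were described beside the receptors. Interneuron markers were lower for 8 of 8 genes (median -0.10), where 49.3% of all genes tested were lower. Their summed level was 476.5 to 570.5 CPM in wild types and 451.3 to 501.8 in knockouts, and none was at 0. Markers of neurons of the subiculum, claustrum and deep cortex, where Nr4a2 is high, were split 4 to 4 (median -0.0002). At an unadjusted p under 0.05 there were 3 of the 8 interneuron markers, Gad1 (log2 fold change -0.08), Dlx1 (-0.28) and Vip (-0.30). Of the subiculum, claustrum and deep cortex markers there was 1, Tle4 (-0.10). Of all genes tested 6.29% had such a p, and no marker of these lists passed the edgeR threshold. The part of the interneuron markers in the result was not tested. The other 7 marker lists (CA1, CA2 and CA3, mossy cells, astrocytes, microglia, oligodendrocytes, and endothelial and mural cells) had medians between -0.02 and 0.07. The ribosomal RNA precursor Rn45s, which poly(A) selection is meant to remove, took 0.614% to 1.85% of counts in wild types and 0.603% to 1.29% in knockouts, with the highest shares in wild-type mice 1 and 2. Among 6 relations of the receptors to this share and to depth, the largest was Nr4a3 with Rn45s (r = 0.745, permutation p 0.0138, adjusted 0.0827; rho = 0.612, permutation p 0.0679, adjusted 0.407). It rested on wild-type mice 1 and 2, without which r was 0.205. With the share as a covariate the log2 fold change was -0.28 for Nr4a1, -0.17 for Nr4a2 and -0.10 for Nr4a3 (edgeR adjusted p 0.919 each).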

How the data were processed

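RNA of the dentate gyrus of 10 mice was sequenced as stranded poly(A) libraries with single-end reads, per the labels' protocols, and the table the authors deposited holds whole-number read counts by gene, not normalized. STAR 2.5.1b, Cufflinks 2.2.1 and the build mm10 are named in the submitters' processing notes with no role or order; how the counting treated strand and multi-mapping reads is not stated there. Depth was 26226375 to 43802079 counts, and replicates differed by more than sampling noise (chi-square per degree of freedom at least 4.47). The symbols, in upper case in the table, were matched to GENCODE M21 and RefSeq.

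Genes were filtered with filterByExpr (14867 left), scaled by TMM and compared with edgeR 4.0.16 in R 4.3.3 (glmQLFit, glmQLFTest), with Benjamini-Hochberg adjustment over all genes and a threshold of 0.05. Standard errors are the fold change divided by the root of F. Single values had an exact two-sided permutation test over 252 assignments (smallest p 0.00794), and correlations with 100000 permutations. Log2 CPM used a prior count of 2 and ratios a pseudocount of 0.5. The steps were first tested on simulated counts.

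Alternatives were DESeq2 1.42.0, upper-quartile scaling, omission of the low-count filter, a minimum of 1 CPM in 5 libraries, limma-voom (limma 3.58.1), the mouse number as a block and each library left out in turn. Rn45s as a covariate, removal of its row, and the relations to Rn45s and depth were added after seeing the data. The members and gene lists were chosen with earlier results of these data known. Genes named were the receptors, Fndc5, the retinoid X receptors, up to 4 genes of each other list with the smallest p, the 5 most alike to each receptor and the 5 other nuclear receptors highest per length; any other gene was picked with its values in view.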

Additional observations from a re-analysis of the deposited data

Results flagged for a closer look

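The log2 ratio of Nr4a2 to Nr4a3 counts in knockout mouse 5 was -2.44, far from the other 4 knockouts by the gap relative to the range of the group. It is the mouse with the lowest Nr4a2 level, 18.8 CPM, while its Nr4a3 level of 101.9 CPM was within the knockout range. Such a gap arises by chance in about 1 of 20 groups, and the levels of the 3 receptors themselves had none.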

How the results depend on the processing

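The estimates for Nr4a1, Nr4a2 and Nr4a3 were below 0 and past no adjusted threshold in each of 18 alternatives, 10 of which left out 1 library. With 1 library left out they ran from -0.362 to -0.181 for Nr4a1, from -0.238 to -0.136 for Nr4a2 and from -0.178 to -0.095 for Nr4a3 (edgeR adjusted p 0.552 to 0.999). In the other settings they ran from -0.279 to -0.256, from -0.198 to -0.166 and from -0.145 to -0.104. With the mouse number as a replicate block the values were -0.273 (SE 0.0642, edgeR unadjusted p 0.000596, adjusted p 0.156), -0.196 (0.00598 and 0.312) and -0.143 (0.0094 and 0.337), and Npas4 was called. Same-numbered mice correlated at 0.209, 0.204, 0.108, 0.00901 and 0.0282. Compared with the 5 mice of the other genotype, 6 of 10 mice correlated best with their own number. The sample descriptions number the libraries with the genotypes in alternation, so mice of 1 number stand side by side there. The labels do not say what mice of 1 number share, so the main fit did not treat them as pairs. Whether they shared handling was not tested. Genes past the threshold numbered 1, but 3 with DESeq2, 8 with the replicate block and 1 to 3 with 1 library left out (3 without wild-type mouse 1, 2 without knockout mouse 2); the cause was not tested. Fndc5 stayed past the threshold throughout (-0.591 to -0.513 with 1 library left out). Genotype differences of the log2 ratios ran from -0.18 to 0.0243 for Nr4a1 to Nr4a2 (0.0243 without wild-type mouse 4, 0.000974 without knockout mouse 1), from -0.198 to -0.0107 for Nr4a1 to Nr4a3 and from -0.118 to 0.00484 for Nr4a2 to Nr4a3 (0.00484 without knockout mouse 5). The r of Nr4a1 with Nr4a2 ran from 0.454 to 0.723 (without wild-type mouse 3), of Nr4a1 with Nr4a3 from 0.408 to 0.769 (without wild-type mouse 4) and of Nr4a2 with Nr4a3 from 0.451 to 0.737 (without wild-type mouse 1), and these 3 highest values had permutation p-values of 0.0254, 0.0137 and 0.025. The median of the retinoid X receptors was 0.00314 without wild-type mouse 1 and that of the coregulators -0.000936 without knockout mouse 3.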
